A study of Mus musculus with 18 samples.

Results

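The 9 genes Ccl2, Ccl6, Ccl7, Ccl8, Ccl9, Ccl12, Ccl17, Ccl22 and Ccl24 encode CC chemokines that are made mainly by monocytes, macrophages and dendritic cells, and they were taken by symbol from the 37236 gene rows of a table of normalized read counts from tumor-infiltrating lymphocytes (TILs). All 9 had a row. CC chemokines are small secreted proteins named for a pair of neighbouring cysteines, and they direct the migration of leukocytes that carry matching G protein-coupled receptors. Ccl2, Ccl7 and Ccl12 bind Ccr2 and draw inflammatory monocytes out of the blood, whereas mouse Ccl8 acts on Ccr8. Ccl6 and Ccl9 are rodent chemokines of the Ccr1 group, Ccl17 and Ccl22 bind Ccr4 on T helper 2 and regulatory T cells, and Ccl24 attracts eosinophils through Ccr3.

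The study asked how loss of the nuclear orphan receptor NR2F6, given alone or with blockade of the checkpoint ligand PD-L1, altered the transcripts of T cells in a transplanted tumor. C57BL/6 mice carried 500000 subcutaneous cells of B16-OVA, a melanoma line that expresses ovalbumin, and were given 0.5 mg of antibody intraperitoneally from day 3, with tumors taken on day 14. The 4 groups were Nr2f6+/+ (wild-type) mice on the isotype control IgG2b (clone LTF-2, n = 3), wild-type mice on αPD-L1 (clone 10F.9G2, n = 6), Nr2f6-/- mice on IgG2b (n = 3) and Nr2f6-/- mice on αPD-L1 (n = 6). The authors stated a smaller n for each αPD-L1 group than the 6 libraries used here. The Nr2f6 deletion was carried by the whole animal, so that myeloid cells lacked the gene as well as T cells, and every mouse received tumor cells and an antibody. T cells were enriched with CD4 and CD8 beads and then sorted as living CD3+ cells, while some dendritic cells also carry CD4 or CD8. The labels name separate replicates but not the animals behind each one, so the p-values measure the spread between these 18 libraries.

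The 18 libraries held 12473391 to 18609482 reads on genes, with a median of 16554699, and 3 reads, taken here as the detection floor, corresponded to 2.46 to 3.64 normalized counts. Nr2f6 was at 0 in all 9 Nr2f6-/- libraries. Libraries numbered 28 to 39 formed a first set with 3 replicates of each group, and libraries 43 to 48 formed a second set with replicates 4 to 6 of the αPD-L1 groups alone, so values within the first set are given beside the treatment comparisons. T cell markers were high in each group, with a sum over Cd3d, Cd3e, Cd3g, Cd8a, Cd4 and Lck of 38320 to 62990 normalized counts. Macrophage markers were also present, with a sum over 14 genes of 916 to 20450 normalized counts, and these are described beside the chemokines below. In such bulk samples, fewer cells of a type and less RNA per cell cannot be told apart.

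The genes lie in clusters. In the mm10 genome with GENCODE M21 annotation, Ccl2 (chr11:82035571-82037453), Ccl7 (chr11:82045712-82047525), Ccl12 (chr11:82101845-82103400) and Ccl8 (chr11:82115185-82116799) follow each other on the plus strand. Ccl9 (chr11:83572919-83578636) and Ccl6 (chr11:83587882-83593087) are neighbours on the minus strand of the same chromosome. Ccl22 (chr8:94745590-94751699) and Ccl17 (chr8:94810453-94812036) lie together on the plus strand of chromosome 8, and Ccl24 (chr5:135569937-135573049) lies apart on the minus strand of chromosome 5. Because such relatives can share reads, their sequences were compared. The stretches of 48 coding bases below, read 5′ to 3′ from the GENCODE M21 transcripts of the 6 members that fell on average over both genotypes, are centred on the cysteine pair that names the family, and the capitals mark its 2 codons.
Ccl2: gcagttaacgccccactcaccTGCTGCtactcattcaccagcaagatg
Ccl7: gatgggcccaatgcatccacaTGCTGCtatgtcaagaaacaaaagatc
Ccl12: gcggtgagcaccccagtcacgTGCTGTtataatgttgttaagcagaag
Ccl8: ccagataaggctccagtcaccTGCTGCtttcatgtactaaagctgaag
Ccl6: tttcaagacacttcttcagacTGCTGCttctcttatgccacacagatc
Ccl9: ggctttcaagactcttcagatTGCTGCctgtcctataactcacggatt
Ccl12 (exon 2, chr11:82102613-82102660) ends its pair on a different cysteine codon from the other 5. The stretches of Ccl2 (chr11:82036485-82036532) and Ccl12 lie in exon 2 and that of Ccl6 (chr11:83589365-83589412) in exon 3, whereas those of Ccl7 and Ccl8 join exons 1 and 2 and that of Ccl9 joins exons 2 and 3. Among the 36 pairs of members the identity of the coding sequences ran from 39.3% (Ccl2 and Ccl22) to 64.8% (Ccl6 and Ccl9). The longest exact stretch shared by any pair was 25 bases over whole transcripts (Ccl6 and Ccl9) and 13 bases over the last 300 bases (Ccl8 and Ccl12), where a 3′ end method takes its reads, while reads under 22 nt had been removed by the authors. The 3′ ends of the members thus share no stretch as long as the shortest read kept.

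PD-L1 blockade was accompanied by lower levels of these chemokines in both genotypes. The 9 genes summed to 9383 to 11190 normalized counts in the 3 wild-type IgG2b libraries and to 1284 to 2747 in the 6 wild-type αPD-L1 libraries. In Nr2f6-/- mice the sum was 8307 to 8743 under IgG2b and 1197 to 2364 under αPD-L1. The libraries of the 2 treatments did not overlap in either genotype. 

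**Figure D1:**
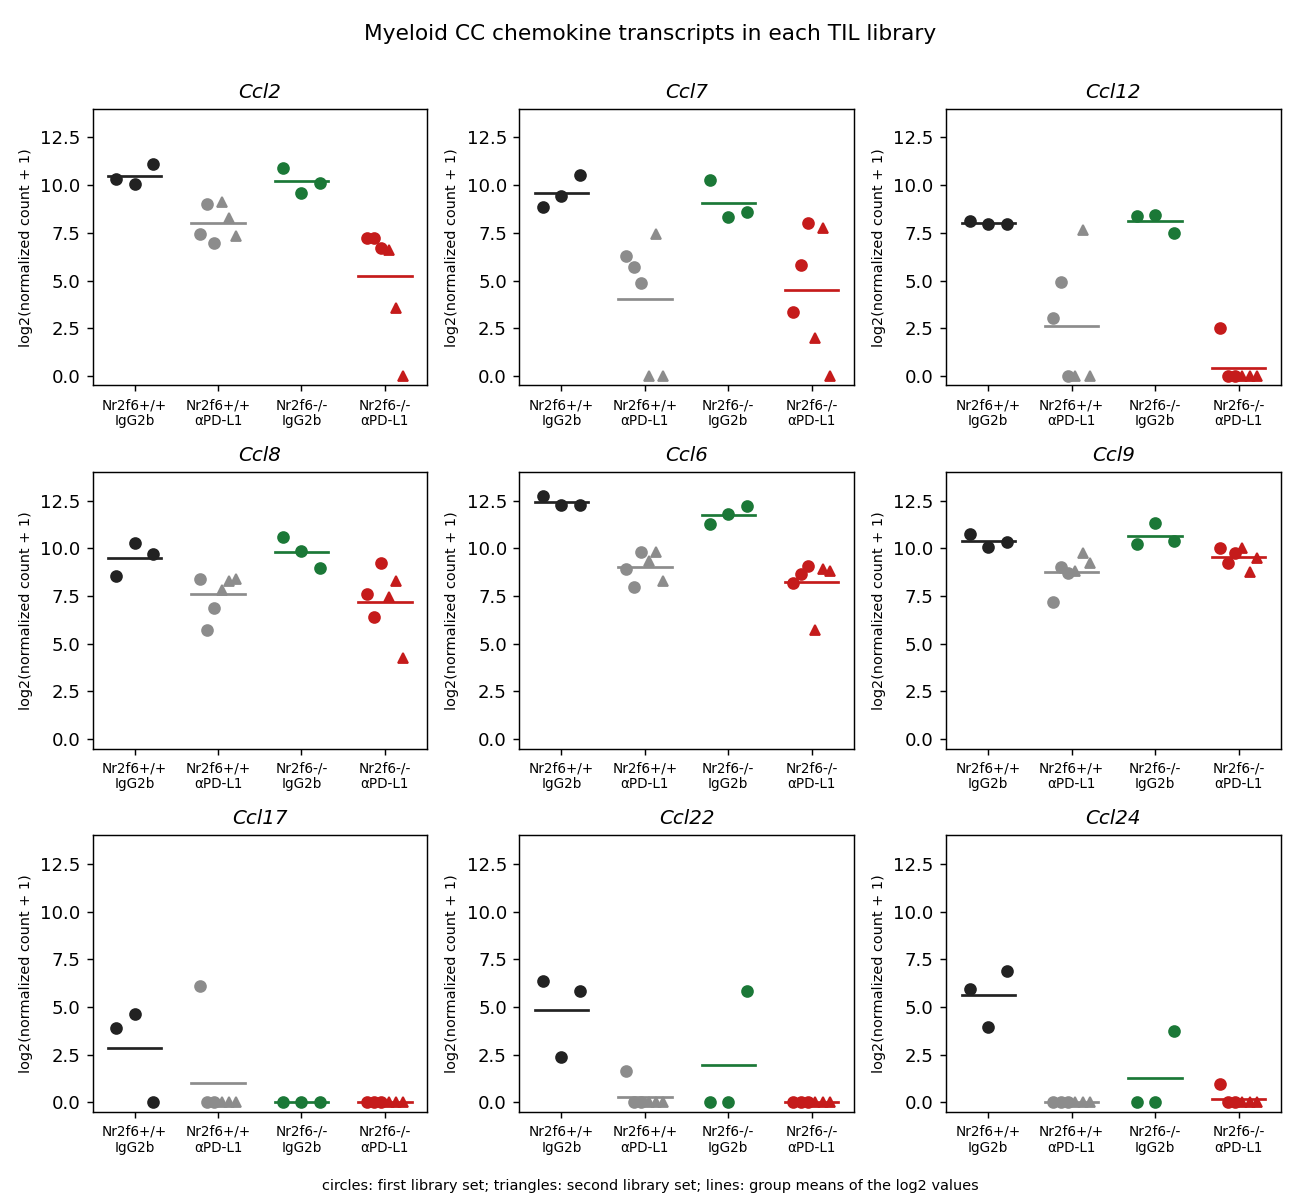
Normalized counts of the 9 chemokines on the log2(count + 1) scale (vertical axes) in each of the 18 libraries, by group (horizontal axes), with circles for the first library set, triangles for the second and lines for the group means of the log2 values. The IgG2b libraries of Ccl6 lie between 2505 and 6891 normalized counts and all αPD-L1 libraries between 51.9 and 904, whereas Ccl9 moves less and Ccl17, Ccl22 and Ccl24 are at 0 in most libraries.

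The treatment effect was tested with limma on log2(normalized count + 1) for genes whose mean over all libraries reached 10, in 1 model of the 4 groups, with Benjamini-Hochberg adjustment over 11992 genes. For genes with libraries at 0 the log2 difference on this scale can be larger or smaller than the fold of the means. For Ccl12 in wild-type mice the means differed 6.55-fold and the log2 difference was -5.40. For Ccl22 in wild-type mice they differed 135-fold and it was -4.58. Of the 9 members 8 entered the test. Ccl17 was too low, and Ccl22 and Ccl24 passed the minimum only through their IgG2b libraries, so that their entry favours a difference. In wild-type mice αPD-L1 gave lower levels of 2 of the 8 members (Ccl6 and Ccl24) at an adjusted p under 0.05, against 0.242% of all genes tested. In Nr2f6-/- mice 3 of 8 fell (Ccl2, Ccl6 and Ccl12), against 0.325% of all genes called in either direction and 0.192% called lower. Averaged over both genotypes, 6 of 8 fell (Ccl2, Ccl6, Ccl7, Ccl8, Ccl9 and Ccl12), against 1.13% of all genes called and 0.934% called lower. No member rose in these 3 comparisons. The members were chosen with earlier results of these data known, so the shares over all genes, here and below, give a scale and not independent support. The libraries of the 2 treatments did not overlap for 8 of 8 members in wild-type mice (3.22% of all genes, lower) and for 5 of 8 in Nr2f6-/- mice (3.15%). The first count includes Ccl22 and Ccl24, which give no support, and for Ccl22 it rests on 4 reads in the lowest IgG2b library against 2 in the highest αPD-L1 library. The median log2 difference over the members tested was -4.0 in wild-type mice, -3.07 in Nr2f6-/- mice and -3.41 on average, against medians over all genes of -0.10, -0.04 and -0.07. These medians include Ccl22 (-4.58 in wild-type and -1.94 in Nr2f6-/- mice) and Ccl24 (-5.61 and -1.09). The order of the 2 genotypes is therefore not read as a result. Without Nr2f6-/- IgG2b replicate 2 the averaged comparison called 3 members (Ccl2, Ccl6 and Ccl12). It also called 3 (Ccl6, Ccl9 and Ccl12) with the library set as a covariate.

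**Figure D2:**
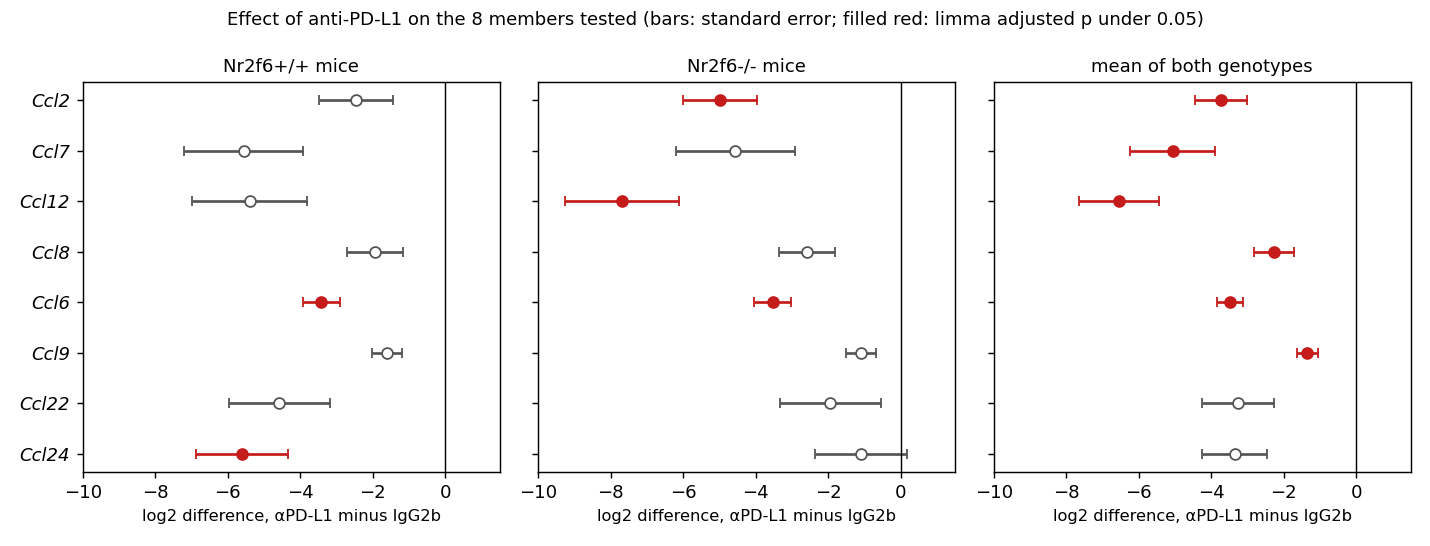
Log2 difference between αPD-L1 and IgG2b (horizontal axes, log2(normalized count + 1) scale, limma) for the 8 members tested (vertical axis) in wild-type mice, in Nr2f6-/- mice and averaged over both, with bars for the standard error and filled red points for an adjusted p under 0.05. All points of the wild-type and Nr2f6-/- panels lie below 0, which fixes the signs in the averaged panel. Ccl22 and Ccl24 entered the test only through their IgG2b libraries. Ccl6 is the member filled in each of the 3 panels.

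The Ccr2 ligands Ccl2, Ccl7 and Ccl12 fell on average over both genotypes. Ccl2, the main attractant of monocytes, was at 1283, 1058 and 2244 normalized counts in the wild-type IgG2b libraries and ranged from 125 to 554 (median 240) under αPD-L1. In Nr2f6-/- mice it was at 1932, 756 and 1118 under IgG2b and ranged from 0 to 148 (median 99.6) under αPD-L1. Each IgG2b library was above each αPD-L1 library of its genotype. The mean was 4.97-fold lower with αPD-L1 in wild-type mice (log2 difference -2.47, SE 1.03, limma adjusted p = 0.575), which did not pass the test, and 15.1-fold lower in Nr2f6-/- mice (-4.99, SE 1.03, limma adjusted p = 0.0186), which did. The Nr2f6-/- αPD-L1 libraries of the second set (95.9, 10.8 and 0) lay below those of the first (147, 148 and 103). Within the first set alone the log2 differences were -2.68 in wild-type and -3.16 in Nr2f6-/- mice, with limma adjusted p-values of 0.0436 and 0.0301. The Nr2f6-/- call was lost without any 1 of the 3 Nr2f6-/- IgG2b replicates (limma adjusted p = 0.179, 0.0921 and 0.112 without replicates 1, 2 and 3) and without Nr2f6-/- αPD-L1 replicate 5 (adjusted p = 0.0525). That call was also lost with the library set as a covariate (limma adjusted p = 0.0941) and with the replicate block (0.054).

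Ccl12, a mouse relative of Ccl2 with the same receptor, went from steady levels to 0 in many libraries. It was at 272, 249 and 247 normalized counts in wild-type IgG2b mice and at 334, 347 and 177 in Nr2f6-/- IgG2b mice. Under αPD-L1 the wild-type libraries were at 7.31, 29.6, 0, 0, 198 and 0, and the Nr2f6-/- libraries at 4.65 in 1 library and 0 in the other 5. A single wild-type library, replicate 5, thus stayed near the IgG2b level, and it also had the highest macrophage and neutrophil marker sums of the 12 αPD-L1 libraries (6954 and 277 normalized counts, with the next at 4529 and 34.02). The part of these cells in the value was not tested. The log2 difference was -5.40 (SE 1.58, limma adjusted p = 0.217) in wild-type mice, -7.69 (SE 1.58, adjusted p = 0.0186) in Nr2f6-/- mice and -6.54 (SE 1.11, adjusted p = 0.00180) on average. The Nr2f6-/- call was lost without any 1 of the Nr2f6-/- IgG2b replicates (limma adjusted p between 0.0826 and 0.117), within the first set (-7.27, adjusted p = 0.0905), with the library set as a covariate (0.0534) and with the replicate block (0.0592). The averaged difference within the first set was -6.31 (limma adjusted p = 0.00804).

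Ccl7, a further monocyte attractant, varied more between replicates. It was at 462, 698 and 1482 normalized counts in wild-type and 1217, 317 and 388 in Nr2f6-/- IgG2b libraries. Under αPD-L1 it ranged from 0 to 174 (median 39.6) in wild-type and from 0 to 258 (median 32.4) in Nr2f6-/- mice. The groups of the 2 treatments did not overlap, with means 16.0-fold and 7.15-fold lower under αPD-L1. The difference passed the test on average (log2 difference -5.07, SE 1.16, limma adjusted p = 0.0228) but in neither genotype alone. Within the first set the averaged values were -3.66 and 0.0178. The averaged call was lost without any 1 of the 6 IgG2b libraries. It was also lost with the library set as a covariate (limma adjusted p = 0.230), the replicate block (limma, 0.075), edgeR (0.05003) and DESeq2 (0.0836).

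Ccl8, the Ccr8 ligand, was at 374, 1248 and 837 normalized counts in wild-type and 1565, 923 and 499 in Nr2f6-/- IgG2b libraries. It ranged from 50.98 to 338 (median 272) in wild-type and from 18.04 to 604 (median 185) in Nr2f6-/- αPD-L1 libraries. The treatments did not overlap in wild-type mice and overlapped in Nr2f6-/- mice. The averaged log2 difference was -2.26 (SE 0.55, limma adjusted p = 0.0321), and within the first set it was of like size (-2.29) with an adjusted p of 0.0638. That call was lost in 4 of the 18 fits that left out 1 library. It was also lost with the library set as a covariate (limma adjusted p = 0.102) and with the replicate block (0.121).

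Ccl6 had the most stable change of the 9 genes. Wild-type IgG2b libraries held 6891, 4995 and 4926 normalized counts of Ccl6, a chemokine of macrophages and other myeloid cells, and the wild-type αPD-L1 libraries 250 to 904 (median 557). Nr2f6-/- IgG2b libraries held 2505, 3535 and 4733, and Nr2f6-/- αPD-L1 libraries 51.9 to 541 (median 430). Neither genotype showed overlap between treatments. The mean fell 9.68-fold in wild-type mice (log2 difference -3.42, SE 0.51, limma adjusted p = 0.000674) and 9.72-fold in Nr2f6-/- mice (-3.53, SE 0.51, adjusted p = 0.000491). Within the first set the log2 differences were -3.54 and -3.12, with limma adjusted p-values of 0.000513 and 0.00581. Both calls held in all 18 fits that left out 1 library and under every other alternative run.

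Ccl9, the chromosomal neighbour of Ccl6 and the nearest to it in coding sequence, changed less. It was at 1700, 1092 and 1284 normalized counts in wild-type IgG2b and 144 to 850 (median 479) in wild-type αPD-L1 libraries. In Nr2f6-/- mice it was at 1191, 2568 and 1325 under IgG2b and 438 to 1035 (median 793) under αPD-L1. The treatments did not overlap, with means 2.73-fold and 2.17-fold lower. The averaged log2 difference was -1.35 (SE 0.29, limma adjusted p = 0.0153; -1.53 and 0.0276 within the first set), and neither genotype passed alone (adjusted p = 0.106 and 0.328). The averaged call was lost without wild-type IgG2b replicate 1 (adjusted p = 0.0658) or Nr2f6-/- IgG2b replicate 2 (adjusted p = 0.0789).

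The ratio of Ccl9 to Ccl6 in the same library does not depend on the size factor and was examined after the values had been seen. Since the 2 transcripts need not be counted with equal efficiency, its change is compared and not its size. In normalized counts the ratio was 0.247, 0.219 and 0.261 in wild-type IgG2b libraries and 0.302 to 2.06 (median 0.818) in wild-type αPD-L1 libraries. In Nr2f6-/- mice it was 0.476, 0.726 and 0.280 under IgG2b and 0.919 to 19.9 (median 1.60) under αPD-L1. Each αPD-L1 library was thus above each IgG2b library of its genotype. On the log2 scale the ratio rose by 1.81 in wild-type and 2.44 in Nr2f6-/- mice, and by 2.13 on average (2-sided exact permutation test of treatment within genotype, 7056 reassignments, p = 0.00198). Within the first set the averaged change was 1.80 (exact permutation p = 0.005, the smallest that 400 reassignments give here). Leaving out 1 library gave changes of 1.83 to 2.29. The same test of Ccl9 against Ccl2, Ccl7, Ccl8 and Ccl12 gave changes of 2.38, 3.72, 0.91 and 5.19, and 4 of the 5 ratios passed after Benjamini-Hochberg adjustment (exact permutation adjusted p = 0.00496 for Ccl6, 0.0265 for Ccl2, 0.0284 for Ccl7 and 0.00283 for Ccl12), whereas Ccl8 did not (0.238). The ratios to Ccl2, Ccl7 and Ccl12 hold libraries at 0 and so depend on the added 1 count. Ccl9 was taken as the numerator after the values had been seen. The adjustment covers the 5 ratios alone, so these p-values do not allow for that choice.

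**Figure D3:**
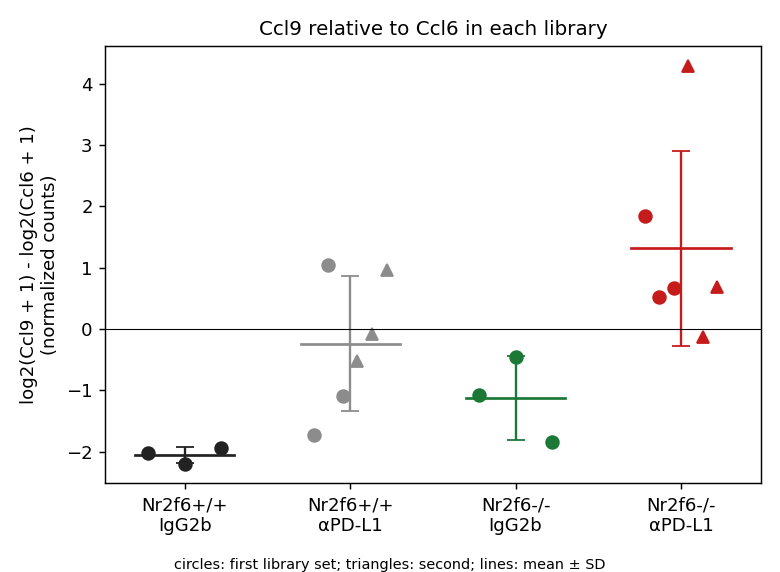
Log2 ratio of Ccl9 to Ccl6, with 1 normalized count added to each (vertical axis), in each library by group (horizontal axis), with circles for the first library set, triangles for the second, and lines for the mean ± SD. In both genotypes the αPD-L1 libraries lie above the IgG2b libraries, and Nr2f6-/- αPD-L1 replicate 4, where Ccl6 was at 51.9 normalized counts, stands highest.

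As these 2 neighbours changed to unequal extents, the 250 bases before each start are shown, from the RefSeq promoter table for GRCm38.p6, which held 6 of the 9 members (Ccl6, Ccl8, Ccl9, Ccl12, Ccl17 and Ccl22). The minus-strand windows are Ccl9 (chr11:83578637-83578886) and Ccl6 (chr11:83593088-83593337), written 5′ to 3′ in the direction of transcription, with capitals for the motif matches.
Ccl9: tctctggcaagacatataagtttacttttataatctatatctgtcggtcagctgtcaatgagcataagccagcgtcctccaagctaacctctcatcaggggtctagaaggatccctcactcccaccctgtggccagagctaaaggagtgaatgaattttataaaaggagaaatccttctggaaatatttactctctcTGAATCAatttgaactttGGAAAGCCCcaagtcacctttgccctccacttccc
Ccl6: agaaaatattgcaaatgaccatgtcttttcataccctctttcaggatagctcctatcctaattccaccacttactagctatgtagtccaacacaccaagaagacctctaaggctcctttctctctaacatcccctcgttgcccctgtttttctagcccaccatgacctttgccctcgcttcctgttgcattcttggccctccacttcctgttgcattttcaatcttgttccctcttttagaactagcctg
The Ccl9 window held the AP-1 letters TGANTCA, as TGAATCA between 53 and 47 bases before the start, and the shortened NF-kB letters GGNNTTTCC on the opposite strand, as GGAAAGCCC between 35 and 27 bases before it. Both strands were searched and the matches do not overlap. The same letters stood in 6.75% and 4.93% of 32851 promoter windows of this length, and in none of the other 5 member windows. Ccl17 held a STAT motif (TTCNNNGAA, 7.02% of windows), and the ETS letters AGAGGAAG (3.67% of windows) were in none of the 6. These are matches of letters alone.

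Ccl17, Ccl22 and Ccl24 had few reads, with group means of at most 64.9 normalized counts, and Ccl22 and Ccl24 were at or near 0 in all αPD-L1 libraries. Ccl24, the eosinophil attractant, was at 61.5, 14.6 and 119 normalized counts in wild-type IgG2b libraries and at 0 in all 6 wild-type αPD-L1 libraries. The mean was at least 22.7-fold lower with αPD-L1, counted against a floor of 3 reads per library (limma log2 difference -5.61, SE 1.26, adjusted p = 0.0490). This call was lost in 15 of the 18 fits that left out 1 library and within the first set (adjusted p = 0.162). In Nr2f6-/- mice Ccl24 was at 0, 0 and 12.5 under IgG2b, and the 1 αPD-L1 library above 0 held a single read. Ccl22, a product of dendritic cells and macrophages, was at 81.7, 4.17 and 55.6 in wild-type IgG2b libraries and at 0, 0 and 55.2 in Nr2f6-/- IgG2b libraries. Under αPD-L1 it was at 2.09 in 1 wild-type library and at 0 in the other 11 (averaged log2 difference -3.26, limma adjusted p = 0.104). Ccl17 was at 14.1, 24.0 and 0 in wild-type IgG2b libraries, at 66.8 in wild-type αPD-L1 replicate 1 and at 0 in the other 5 libraries of that group, and at 0 in all 9 Nr2f6-/- libraries. Its wild-type means of 12.7 ± 12.1 (IgG2b, SD, n = 3) and 11.1 ± 27.3 (αPD-L1, n = 6) differed by less than their spread, and it was not tested.

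Loss of Nr2f6 changed no member past the test under either antibody. Under IgG2b limma called 0 of the 8 members, as did edgeR and DESeq2, and 0 of 11992 genes (0% called), with 1 member at an unadjusted p under 0.05 (5.35% of all genes). That member was Ccl24, at 61.5, 14.6 and 119 normalized counts in wild-type and 0, 0 and 12.5 in Nr2f6-/- mice (log2 difference -4.36, SE 1.46, limma adjusted p = 0.846). Ccl6 did not overlap either, with a lowest wild-type IgG2b value of 4926 above a highest Nr2f6-/- value of 4733 (log2 difference -0.67, SE 0.59, limma adjusted p = 0.989). Non-overlap in this direction between these 2 groups was found for 8.07% of all genes.

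Under αPD-L1 limma again called 0 of 8 members for genotype, as did edgeR and DESeq2, against 0.175% of all genes. Of the members, 2 had an unadjusted p under 0.05 (9.73% of all genes). Ccl2 was 3.66-fold lower in Nr2f6-/- than in wild-type mice on means of 84.1 ± 64.7 and 307 ± 189 normalized counts (SD, n = 6 each; log2 difference -2.82, SE 0.84, limma adjusted p = 0.215). In the first set alone the difference was -0.78 (SE 0.53), and the lower values came from the second set, where Nr2f6-/- libraries at 95.9, 10.8 and 0 stood against wild-type libraries at 554, 305 and 163. Ccl9 pointed the other way, with 780 ± 240 normalized counts in Nr2f6-/- and 497 ± 233 in wild-type mice (log2 difference 0.76, SE 0.33, limma adjusted p = 0.447; 1.35, SE 0.44, within the first set). The test of whether genotype altered the αPD-L1 effect called 0 of 8 members with limma, edgeR and DESeq2, and 0 genes with limma (0% called), with 1 member (Ccl24) at an unadjusted p under 0.05 (4.97% of all genes). For Ccl6 the 2 effects differed by -0.12 (SE 0.72), and for Ccl2 by -2.52 (SE 1.45), both on the log2 scale.

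Against wild-type IgG2b mice, the mice with both interventions had lower levels of 4 of 8 members (Ccl2, Ccl6, Ccl12 and Ccl24), against 0.617% of all genes called and 0.459% called lower. The log2 differences were -5.29 for Ccl2 (limma adjusted p = 0.00920), -4.20 for Ccl6 (2.43e-05), -7.59 for Ccl12 (0.0154) and -5.45 for Ccl24 (0.0343). Ccl24 entered the test through its wild-type IgG2b libraries, the high group of this comparison, so that its call is not counted as support. Ccl6 alone remained called without any 1 of the 3 wild-type IgG2b replicates. This comparison shares its controls with that of αPD-L1 in wild-type mice, where the same 4 genes were at -2.47, -3.42, -5.40 and -5.61.

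The receptors of these ligands were described alongside. Of 10 receptor genes, 7 passed the minimum, and limma called 0 in any comparison. For αPD-L1 averaged over genotypes, 3 had an unadjusted limma p under 0.05, a count not read as a result, since the share over all genes is not given. DESeq2, which called more of all genes than limma in that comparison, called Ccr4 lower, and edgeR called 0. Ccr2, the receptor for Ccl2, Ccl7 and Ccl12, was at 3214 ± 643 and 2877 ± 1490 normalized counts in wild-type and Nr2f6-/- IgG2b libraries (SD, n = 3 each) and at 2582 ± 1377 and 2794 ± 890 under αPD-L1 (n = 6 each), with an averaged log2 difference of -0.20 (SE 0.27). Ccr4, the receptor for Ccl17 and Ccl22, was at 134 ± 138 and 149 ± 103 under IgG2b and 12.4 ± 16.7 and 5.25 ± 9.33 under αPD-L1 (averaged log2 difference -3.99, SE 1.24, limma adjusted p = 0.121). Ccr1, which binds Ccl6 and Ccl9, had means of 180 and 83.7 under IgG2b and 90.3 and 19.7 under αPD-L1, in wild-type and Nr2f6-/- mice in turn. Ccr3, the Ccl24 receptor, had means of 116 and 189 under IgG2b and 40.4 and 64.0 under αPD-L1. Ccr8, the Ccl8 receptor, had means of 61.2 and 20.1 under IgG2b and 27.6 and 19.4 under αPD-L1.

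Other CC ligands moved in both directions. Of 11 such genes 6 were tested, of which 2 of 6 pointed lower with αPD-L1 on average and 3 of 6 in Nr2f6-/- mice. Ccl1, the other Ccr8 ligand, had an averaged log2 difference of -2.31 (SE 0.78, limma adjusted p = 0.171) and Ccl25 one of -2.80 (SE 1.14, adjusted p = 0.297), and neither passed the test. Averaged over genotypes, αPD-L1 gave higher levels of Ccl4 (log2 difference 0.94, SE 0.23, limma adjusted p = 0.0325) and Ccl5 (0.82, SE 0.19, adjusted p = 0.0269), which are chemokines made by activated T cells. Limma called none of them lower. DESeq2 called Ccl4 but not Ccl5 in the averaged comparison. By genotype, Ccl5 rose with αPD-L1 in Nr2f6-/- mice (log2 difference 1.46, limma adjusted p = 0.0109). In wild-type mice it did not pass the test (0.18, SE 0.27, limma adjusted p = 0.940). It was higher in Nr2f6-/- than in wild-type mice under αPD-L1 (1.51, limma adjusted p = 0.000732). Ccl3, Ccl4 and Ccl5 were higher in Nr2f6-/- αPD-L1 than in wild-type IgG2b libraries, by log2 differences of 1.21, 1.52 and 1.69 (limma adjusted p = 0.0343, 0.0184 and 0.00186). Ccl11, Ccl19, Ccl20 and Ccl21a were at 0 in all 18 libraries.

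Markers of macrophages and monocytes were lower in the same libraries as the chemokines. The 14 markers summed to 9353 to 20450 normalized counts (median 14760) in the 6 IgG2b libraries and to 916 to 6954 (median 2011) in the 12 αPD-L1 libraries, and none of the 14 was at 0 in every library of a group. By genotype, the IgG2b sums were 16280 to 20450 in wild-type and 9353 to 13240 in Nr2f6-/- mice, without overlap. Between these 2 groups 13 of 14 markers pointed lower in Nr2f6-/- mice (6487 of all 11992 genes did), and limma called 0. Averaged over genotypes all 14 pointed lower (6758 of all 11992 genes did) and limma called 7 of 14 lower (Lyz2, C1qb, C1qc, Cd14, Mrc1, Apoe and Adgre1), against 0.934% of all genes. With edgeR 4 of 14 were called (Lyz2, C1qb, C1qc and Apoe) and with DESeq2 5 (these and Ms4a7). The marker lists were also chosen with earlier results of these data known, so these counts are not independent support. Lyz2, lysozyme of myeloid cells, had a log2 difference of -2.85 (limma adjusted p = 3.20e-07), and Cd14, the lipopolysaccharide co-receptor, one of -5.17. Of 6 genes listed for alternative activation of macrophages (Arg1, Chil3, Retnla, Mgl2, Clec10a and Il4ra), all pointed lower in the same comparison and 1 (Arg1) was called. Of 5 platelet markers 2 were tested, and both (Ppbp and Pf4) were called lower. Arg1 and Ppbp passed the minimum only through IgG2b libraries, so that their entry favours a difference. Ppbp was at 0 outside the wild-type IgG2b libraries, and Itga2b, Gp9 and Gp1bb were at 0 in all IgG2b libraries. Dendritic cell markers (9 genes, 8 tested) summed to 1336 to 2319 under IgG2b and 838 to 1660 under αPD-L1. Limma and edgeR called 0 of them, and DESeq2, which called more of all genes than limma, called 1 (Ccr7). An unadjusted limma p under 0.05 was found for 2, a count not read as a result, since the share over all genes is not given. Marker sums of neutrophils, of eosinophils and mast cells, and of B cells had medians of 9.33 normalized counts or less under either antibody, with highest values of 277, 116 and 192. The part of these cell types in the chemokine differences was not tested.

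**Figure D4:**
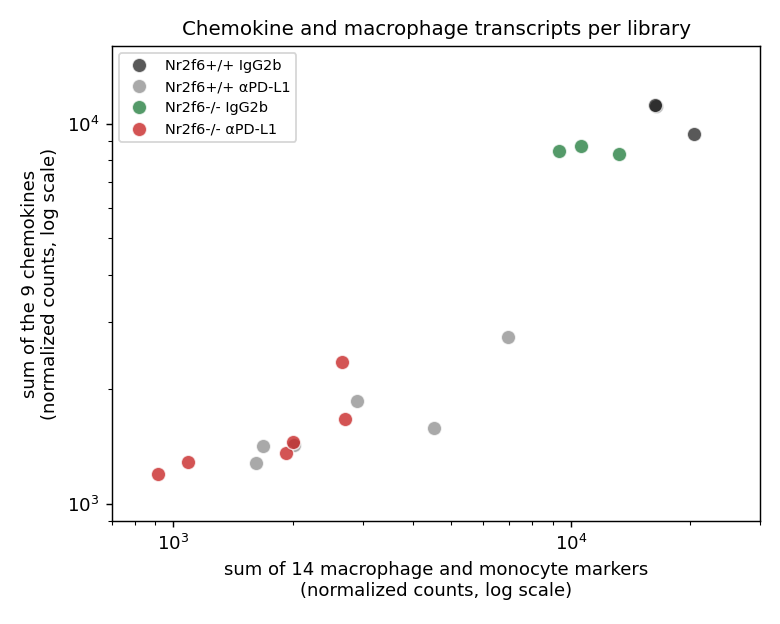
Summed normalized counts of the 9 chemokines (vertical axis, log scale) against the summed normalized counts of 14 macrophage and monocyte markers (horizontal axis, log scale) in the 18 libraries, coloured by group. The 6 IgG2b libraries (2 wild-type points overlap) lie at or above 9353 on the marker axis and 8307 on the chemokine axis, and the 12 αPD-L1 libraries stay at or below 6954 and 2747.

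Set against the marker sum of the same library, the means of the members moved in different directions. For Ccl2, Ccl6, Ccl7, Ccl8 and Ccl9 the libraries of the 2 treatments overlapped in both genotypes. For Ccl12 they overlapped in wild-type but not in Nr2f6-/- mice. Per 1000 normalized counts of the 14 markers, Ccl6 was at 323 and 324 on average in wild-type and Nr2f6-/- IgG2b libraries and at 191 and 241 under αPD-L1. Ccl12 was at 14.7 and 27.3 under IgG2b and at 8.43 and 0.287 under αPD-L1. Ccl9 was at 78.7 ± 25.3 and 162 ± 97.4 under IgG2b (SD, n = 3 each) and at 178 ± 101 and 467 ± 204 under αPD-L1 (n = 6 each), the opposite direction from its normalized count. Ccl8 was at 45.1 and 94.5 under IgG2b and at 92.5 and 107 under αPD-L1. Ccl2 was at 89.3 and 116 under IgG2b and at 127 and 47.4 under αPD-L1. Ccl7 was at 51.1 and 59.2 under IgG2b and at 18.1 and 43.2 under αPD-L1. These shares are given as a description, since the divisor itself changed with treatment.

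Across the 18 libraries the genes outside the list most like the members' mean standardized log2 level were Lyz2 (Pearson r = 0.94), H2-Eb1, a chain of MHC class II (0.88), Dhrs3 (0.87), Cxcl1, a neutrophil attractant (0.87), Cd40, a costimulatory receptor of antigen-presenting cells (0.87), Emilin2 (0.86), Tcf7, a transcription factor of stem-like T cells (0.85), and App (0.85). Within the 12 αPD-L1 libraries alone the same genes had r of 0.20 (Emilin2) to 0.76 (H2-Eb1). Between members, r over the 18 libraries ran from 0.34 (Ccl8 and Ccl22) to 0.93 (Ccl22 and Ccl24), and within the 12 αPD-L1 libraries from -0.80 (Ccl9 and Ccl22) to 0.46 (Ccl2 and Ccl8). The 18 libraries share the difference between treatments, and the value for Ccl22 within αPD-L1 rests on 1 library with 2 reads.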

How the data were processed

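RNA of CD3+ TILs was made into 3′ end libraries (QuantSeq, Ion Torrent), so that a transcript gives reads near its 3′ end regardless of length. Per the labels and methods, the authors trimmed reads with Cutadapt and Trimmomatic, dropped those under 22 nt, aligned with STAR and then Bowtie2 to mm10, and counted genes with HTSeq. Annotation, strand setting and versions are not given in the sources used here. The deposited signal is the count divided by a DESeq2 size factor. Values were whole multiples of 1 read in every library (100% within 0.01), which gave back reads for the count tests. No 2 of the 153 pairs of libraries were identical.

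Genes with a mean of at least 10 were tested with limma 3.58.1 (trend, R 4.3.3) on log2(normalized count + 1). Alternatives on the recovered reads were edgeR 4.0.16 and DESeq2 1.42.0. The tools were checked on simulated data, where a limit on false calls was set for limma and edgeR but not for DESeq2. Groups came from sample titles. Named genes were all members, other CC ligands, receptors (Ccr1, Ccr2, Ccr3, Ccr4 and Ccr8 always) and markers past adjusted p 0.05, and the 8 genes most like the members. Motifs and ratios were chosen later. The members and lists were chosen with earlier results of these data known. Floors cover counting error only. Same-numbered replicates come from different mice and did not deviate together (correlations of -0.03 to 0.04 over 21 pairs), so no pairing was used.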

Additional observations from a re-analysis of the deposited data

Results flagged for a closer look

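Within the 6 libraries of an αPD-L1 group, 1 value stood apart from the other 5 by more than Dixon's critical share of the range in 5 of 15 member and group combinations. In 4 of the 5 the other libraries were all at 0, where any value above 0 stands apart by construction, so that the usual chance rate of about 1 in 20 groups does not apply to these. Ccl12 was at 198 normalized counts (241 reads) in wild-type αPD-L1 replicate 5, with the next library at 29.6, a gap of 0.851 of the range. The same library had the highest sums of the αPD-L1 libraries for macrophage markers (6954, next 4529), neutrophil markers (277, next 34.02) and the 9 members (2747, next 2364). Ccl17 was at 66.8 (64 reads) in wild-type αPD-L1 replicate 1 and at 0 in the other 5. The remaining 3 rest on few reads beside libraries at 0, namely Ccl12 at 4.65 (5 reads) and Ccl24 at 0.930 (1 read) in Nr2f6-/- αPD-L1 replicate 1, and Ccl22 at 2.09 (2 reads) in wild-type αPD-L1 replicate 1. The causes were not tested.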

How the results depend on the processing

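Of 15 member results past the test, 14 kept their call with a pseudocount of 10, 13 after quantile normalization, 12 with edgeR, 11 within the first library set, 8 without a filter on low values, 8 with the library set as a covariate and 8 with the replicate block, and 9 of 12 with DESeq2, which gave no adjusted p for Ccl12. None reversed. The Ccl6 calls held throughout. The cause of each shift below was not tested, beyond the fewer samples or other genes tested that a setting brings.

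Members called in wild-type mice numbered 1 in place of 2 with quantile normalization, the set covariate, edgeR and DESeq2, in Nr2f6-/- mice 1 in place of 3 without the filter and with the covariate, on average 3 in place of 6 with the covariate, and in the combination 2 in place of 4 without the filter and with DESeq2. For genotype and for the interaction the count stayed at 0 under every alternative. All genes called moved from 29 in wild-type mice to 60 (pseudocount 10), 12 (covariate), 19 (edgeR) and 94 (DESeq2), from 39 in Nr2f6-/- mice to 17 (no filter), 8 (first set) and 230 (DESeq2), and from 136 on average to 211 (pseudocount 10), 88 (no filter), 69 (covariate) and 333 (DESeq2). They moved for genotype under IgG2b from 0 to 1 (pseudocount 10), 14 (no filter) and 88 (DESeq2), for genotype under αPD-L1 from 21 to 9 (no filter), 34 (first set) and 184 (DESeq2), for the combination from 74 to 116 (pseudocount 10), 41 (edgeR) and 177 (DESeq2), and for the interaction from 0 to 5 (no filter) and 76 (DESeq2).

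The labels' replicate numbers do not pair mice. With the replicate block, 1, 1 and 3 members and 12 genes (wild-type) and 69 genes (average) were called, in the wild-type, Nr2f6-/- and averaged comparisons, and all other counts stayed within 1.5 times.

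Leaving out 1 library gave 1 to 2, 1 to 3, 3 to 7 and 1 to 4 members called for αPD-L1 in wild-type mice, in Nr2f6-/- mice, on average and for the combination, and 0 to 0 for both genotype comparisons and the interaction. The wild-type count was 1 in 15 of the 18 fits (without any wild-type library, without Nr2f6-/- IgG2b replicate 1 and without Nr2f6-/- αPD-L1 replicates 2 to 6). The Nr2f6-/- count fell to 1 without any Nr2f6-/- IgG2b replicate, the combination count to 1 without any wild-type IgG2b replicate, and the averaged count to 3 without Nr2f6-/- IgG2b replicate 2. All genes called ranged from 6 to 31 (wild-type), 13 to 45 (Nr2f6-/-), 55 to 165 (average), 0 to 1 (genotype, IgG2b), 9 to 27 (genotype, αPD-L1), 10 to 92 (combination) and 0 to 0 (interaction), lowest without an IgG2b library in the treatment comparisons and the combination. Without any wild-type IgG2b replicate 6 to 10 genes were called in wild-type mice and 10 to 22 in the combination, without any Nr2f6-/- IgG2b replicate 13 to 15 in Nr2f6-/- mice, and without any IgG2b library 55 to 85 on average. The combination count was 44 to 49 without Nr2f6-/- αPD-L1 replicate 2, 3 or 5, and that for genotype under αPD-L1 was 9 to 13 without wild-type αPD-L1 replicate 4 or 5 or Nr2f6-/- αPD-L1 replicate 1 or 2. The change in the Ccl9 to Ccl6 ratio was 2.10 with a pseudocount of 10 and 1.80 within the first set, both alternatives chosen after seeing the data. Depth limits Ccl17, Ccl22 and Ccl24, which lay at or under the floor of 3 reads in most libraries.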
